A study of Arabidopsis thaliana with 6 samples.

Results

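The plastid genome of plants encodes the core subunits of the complexes that carry out photosynthesis, and 33 of these genes were followed here in drought-treated flower buds of Arabidopsis thaliana. The set holds 5 genes of photosystem I (psa), 15 of photosystem II (psb), 6 of the cytochrome b6f complex (pet), 6 of the chloroplast ATP synthase (atp) and rbcL, which encodes the large subunit of Rubisco. A gene entered when a probe set, the group of short probes that reads a transcript, was annotated with that gene and no other and its symbol was a plastid psa, psb, pet or atp gene or rbcL, so the rule reads names and no signal. Each of the 33 had 1 probe set, and the RefSeq gene table places all 33 on the plastid. They are 33 of 69 plastid genes, and of 13350 genes in all, that had a probe set of their own. Mitochondrial atp genes were left out.

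Buds still unopened were taken from dreb1a plants, line CS872453 in the Col-0 ecotype, in which the gene of the drought- and cold-responsive transcription factor DREB1A is mutated. Plants had grown for 24 days and carried a main stem of about 1 cm when watering stopped, and the soil was near 35% of its water-holding capacity about 80 hours later, which counts as day 3 of drought. Soil moisture was then held, and the 3 groups are droughted mutant buds of day 3, day 4 and day 5, from plants 28, 29 and 30 days old, with 2 samples and hence 2 ATH1 arrays (Affymetrix oligonucleotide arrays for Arabidopsis) per day. All 3 groups carry the mutation and all were droughted, so the comparisons ask how the transcripts changed with further days at low soil moisture within 1 mutant line, and drought and plant age cannot be told apart. No probe set used here was annotated with DREB1A alone, so the genotype rests on the labels. The labels do not say whether replicates came from separate plants, so the p-values reflect only how much these samples vary, and that variation may be technical.

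Photosystem II uses light to split water and hands electrons through the cytochrome b6f complex to photosystem I, while the ATP synthase uses the proton gradient built up on the way and Rubisco fixes carbon dioxide. The plastid supplies the reaction centres and many small membrane subunits of these complexes, and the nucleus supplies most of the peripheral ones. Many plastid genes are transcribed together into long RNAs that are then cut, trimmed and edited by nuclear-encoded proteins, so genes of 1 transcription unit can share RNA molecules and are not independent of one another. Plastid mRNAs generally carry no stable poly-A tail. The labelling is described only as standard, and how the RNA was primed is not stated. How fully the signals read these RNAs is therefore not known, and its part in the changes was not tested. Buds hold green sepals beside paler inner organs, and in whole buds fewer plastids or cells of a type and less RNA per cell cannot be told apart.

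Values are deposited log2 signals, made comparable between arrays by quantile normalization, and the array medians lay between 7.41 and 7.46. Tests compare a probe set only with itself on other arrays, since probe sets differ in brightness for equal amounts of RNA. Changes were tested with limma in 1 fit over all 6 arrays and 22746 probe sets. A gene is said to have risen or fallen when its p, adjusted by Benjamini-Hochberg over all these probe sets, was under 0.05. On day 5 the ribosomal RNA and poly-A controls of the array maker were higher, while its 18 hybridisation control probe sets changed by -0.23 to 0.28 against day 4, its 6 actin probe sets by -0.34 to -0.16 and its 5 GAPDH probe sets by -0.40 to -0.14. The 25S ribosomal RNA probe set read 13.30 and 13.52 on day 5, against 12.46 and 12.50 on day 4, and the mean of the 24 poly-A control probe sets was 7.63 and 7.53 on day 5, against 7.08 and 6.98 on day 4. The part these shifts had in the results was not tested. Scaling the arrays to the poly-A controls gives a median change of all probe sets of -0.60 for day 5 against day 4, where the deposited values give -0.05, and the genes whose direction turns under that scaling are named beside each result. The ratio of 3' to 5' signal, a measure of RNA integrity, was 1.429 and 1.526 on day 3, 1.342 and 1.198 on day 4, and 1.479 and 1.403 on day 5 in the actin control (log2). In the GAPDH control it was 0.16 and 0.19 on day 3, -0.04 and -0.00 on day 4, and 0.06 and 0.13 on day 5, and in the ubiquitin control 0.23 and 0.25 on day 3, 0.17 and 0.24 on day 4, and 0.30 and 0.22 on day 5. Day 5 was above day 4 in actin and GAPDH but not above day 3, and the days overlapped in ubiquitin. As a check of the tissue, 3 of 17 listed anther genes were measured, AMS, EMS1 and SPL, and read between 7.16 and 9.61 on all arrays. Measured means read by a probe set annotated with that gene alone. Of the 22746 tested probe sets 8730 were not named here, so genes counted as not measured may still be on the array. UFO was the only floral identity gene measured of 20 listed, and its 6 values lay between 4.48 and 5.08. These are low signals, since the lowest quartile of all probe sets on day 3 ends at 4.96. With so few genes, and brightness that differs between probe sets, the check is weak and UFO adds little to it.

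None of the 33 genes changed between day 3 and day 4 (limma, adjusted p under 0.05), where 4.95% of all probe sets passed, 2.48% up and 2.47% down. None passed at an unadjusted p under 0.05 either, where 4637 of the 22746 probe sets and 6 of the 36 other plastid genes did. No member passed the adjusted threshold under any alternative processing tried. The changes lay between -0.32 for atpF and 0.23 for petD on the log2 scale, with 25 genes negative and 8 positive. Their median was -0.09, beside 0.02 over all probe sets.

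On day 5 about as many of these genes had changed as had not. Against day 4, 11 of the 33 rose and 6 fell (limma, adjusted p under 0.05), and 16 did not pass. Over all probe sets 23.9% passed in that comparison, 10.5% up and 13.4% down. The genes that rose were psaC, psbA, psbB, psbN, psbT, petB, petD, petG, petN, atpH and atpI, although psbA, psbN, petB, atpH and atpI turned slightly negative when scaled to the poly-A controls. Those that fell were psaI, psbC, psbK, petA, atpA and rbcL, also under that scaling. The members' median change was 0.24, beside -0.05 over all probe sets, and it was 0.03 over the 36 other plastid genes, of which 8 rose and 7 fell, and both plastid medians are negative with the poly-A scaling. Scaled to the poly-A controls 4 members rose and 16 fell. That scaling moves all probe sets of an array by the same amount. Changes relative to the median of all probe sets are therefore the same as in the deposited values, and are no second test. The 11 genes lay 0.39 to 2.08 above that median and the 6 genes 0.34 to 0.79 below (log2). With repeated quantile normalization 11 members rose and 4 fell, and with cyclic loess 13 rose and 3 fell. None of the 17 genes that passed had overlapping values on the days compared. Picking genes by a small p favours this with 2 arrays per day, so it adds no support to the calls. Over all probe sets, passed or not, 62.2% did not overlap. The count of 17 was 9 with replicate 2 of day 4 left out, 11 with replicate 1 of day 5 left out and 7 with replicate 2 of day 5 left out.

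**Figure D1:**
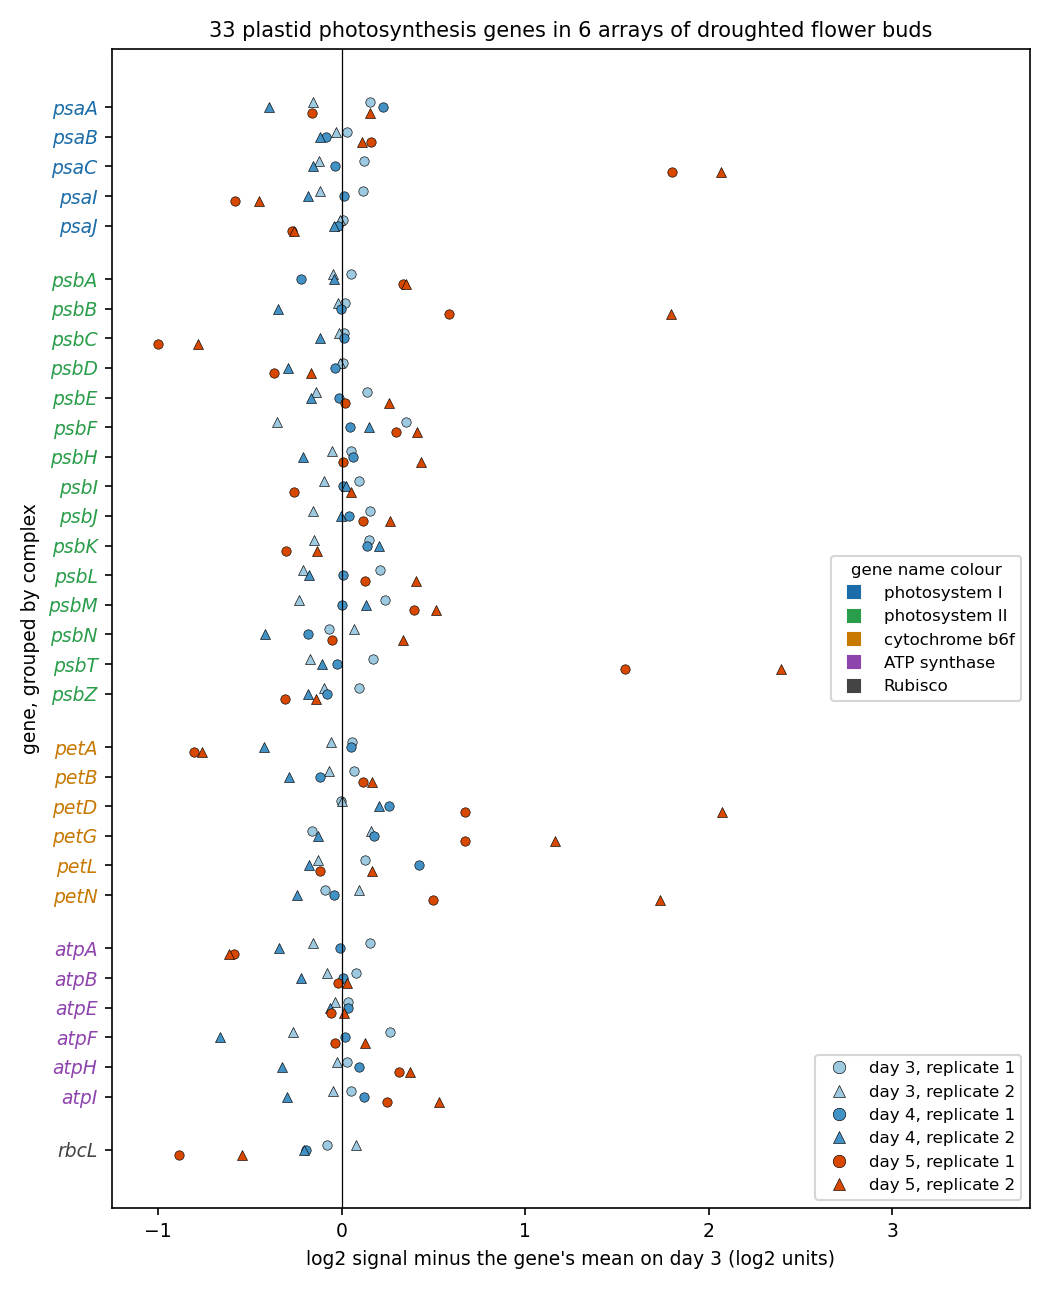
Each row is 1 of the 33 genes, grouped by complex, and each point is 1 array (circles replicate 1, triangles replicate 2), drawn as its log2 signal minus the gene's mean on day 3. Most points lie near 0, while the day 5 points of psaC and psbT stand far to the right and those of psbC, petA and rbcL to the left.

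In photosystem II, 4 of 15 genes rose and 2 fell on day 5 against day 4. The largest change was in psbT, a small subunit of the core that lies at the interface of the dimer. It read 5.89 and 5.55 on day 3, 5.70 and 5.62 on day 4, and 7.27 and 8.12 on day 5. Both day 5 arrays were far above the other 4, which lay close together. The rise over day 4 was 4.095-fold (log2 change 2.03, SE 0.22, 95% interval 1.55 to 2.51, adjusted p = 0.000138 in limma), and the call held with any 1 array left out and with the poly-A scaling (1.48). psbB encodes CP47, an inner antenna protein that binds chlorophyll next to the reaction centre. It read 7.01 and 6.97 on day 3, 6.98 and 6.64 on day 4, and 7.57 and 8.78 on day 5, so the days did not overlap but the day 5 arrays lay far apart. It rose by 1.37 (SE 0.28, adjusted p = 0.00607), and by 0.76 with replicate 2 of day 5 left out. With replicate 2 of day 4 left out it did not pass (adjusted p = 0.0506).

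psbA encodes D1, the reaction centre protein that light damages and that is constantly replaced. Its values were 9.49 and 9.39 on day 3, 9.22 and 9.39 on day 4, and 9.77 and 9.79 on day 5, with both day 5 arrays above all others. The rise of 0.48 (SE 0.11, adjusted p = 0.00821 in limma) did not pass with replicate 2 of day 5 left out (adjusted p = 0.0566) and turned to -0.08 with the poly-A scaling. psbN, which encodes a protein that in tobacco is needed to assemble and repair photosystem II and is not a subunit of it, read 7.66 and 7.79 on day 3, 7.54 and 7.31 on day 4, and 7.67 and 8.06 on day 5. Day 4 was its lowest day, and day 5 overlapped day 3. Its rise over day 4 of 0.44 (adjusted p = 0.0399) turned to -0.11 with the poly-A scaling, was 0.25 with replicate 2 of day 5 left out (adjusted p = 0.315), and also failed to pass with replicate 2 of day 4 left out (adjusted p = 0.200), without either day 3 array and in a fit of the 2 days alone (adjusted p = 0.0586 in each).

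CP43, the other inner antenna protein, is encoded by psbC, which moved the opposite way to psbB. It read 10.14 and 10.11 on day 3, 10.14 and 10.01 on day 4, and 9.12 and 9.34 on day 5. The 4 earlier arrays lay close together, and both day 5 arrays were clearly lower. The fall was 1.79-fold (log2 change -0.84, SE 0.11, 95% interval -1.08 to -0.60, adjusted p = 0.000466 in limma) and held with any 1 array left out. psbK, a small subunit beside CP43, had 12.48 and 12.18 on day 3, 12.46 and 12.53 on day 4, and 12.02 and 12.19 on day 5. It was lower than on day 4 but overlapped day 3. Its change of -0.39 (adjusted p = 0.0379) missed the threshold when any 1 of the 4 arrays of days 4 and 5 was left out (adjusted p from 0.0706 to 0.208), with quantile normalization repeated (adjusted p = 0.0738) or with cyclic loess (adjusted p = 0.146).

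The other 9 genes of photosystem II did not pass for day 5 against day 4, with changes between -0.12 and 0.39. They include psbD for D2, the partner of D1 in the reaction centre, at -0.10 (95% interval -0.36 to 0.16), and psbE and psbF, which encode the 2 chains of cytochrome b559, at 0.23 and 0.26. The small subunit genes psbH, psbI, psbJ, psbL, psbM and psbZ stood at 0.30, -0.12, 0.18, 0.35, 0.39 and -0.09. Every positive value among these 9 genes was negative with the poly-A scaling, with psbJ at -0.38. psbL passed with limma's trend option, a prior that depends on signal (adjusted p = 0.0434). psbM, a further subunit of the dimer interface, did not pass against day 4 in the main fit (adjusted p = 0.0733). It did with the trend option (adjusted p = 0.0189), with cyclic loess (adjusted p = 0.0238) and with only days 4 and 5 in the fit (adjusted p = 0.0335). Against day 3 it rose by 0.45 (adjusted p = 0.0348), with values of 13.57 and 13.69 on day 5, against 13.41 and 12.94 on day 3. That rise was 0.22 with replicate 2 of day 3 left out (adjusted p = 0.302) and 0.69 with replicate 1 of day 3 left out. It missed the threshold with either array of day 5 left out (adjusted p = 0.0705 and 0.174) or with quantile normalization repeated (adjusted p = 0.0639), and turned to -0.03 with the poly-A scaling.

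Photosystem I held a large rise and a smaller fall, and 3 of its 5 genes did not pass. psaC encodes the subunit that carries the terminal iron-sulphur clusters and passes electrons to ferredoxin. It read 5.78 and 5.54 on day 3, 5.63 and 5.51 on day 4, and 7.47 and 7.73 on day 5. The day 5 arrays stood well above the other 4. psaC rose 4.09-fold over day 4 (log2 change 2.03, SE 0.13, 95% interval 1.75 to 2.31, adjusted p = 4.99e-06 in limma), with changes of 1.90 to 2.16 when each array was left out and 1.48 with the poly-A scaling.

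psaI, which encodes a small membrane subunit, fell. Its values were 10.89 and 10.66 on day 3, 10.79 and 10.59 on day 4, and 10.20 and 10.33 on day 5, both below every earlier array. The change was -0.43 (SE 0.12, adjusted p = 0.0236 in limma), but it did not pass with replicate 1 of day 4 left out (adjusted p = 0.121) or either array of day 5 (adjusted p = 0.136 and 0.0619), or with cyclic loess (adjusted p = 0.0596). The reaction centre genes psaA and psaB, whose products bind most of the chlorophyll of the complex, stood at 0.08 (95% interval -0.34 to 0.50) and 0.24 (0.02 to 0.45), turning to -0.47 and -0.31 with the poly-A scaling. psaB passed with limma's trend option, a prior that depends on signal (adjusted p = 0.0322) and with cyclic loess (adjusted p = 0.0188). The small subunit gene psaJ stood at -0.23 (adjusted p = 0.104).

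Of the 6 genes of the cytochrome b6f complex, 4 rose and 1 fell on day 5 against day 4, with a median change of 0.62. petN, petG and petL encode very small membrane subunits. petN read 6.79 and 6.98 on day 3, 6.84 and 6.64 on day 4, and 7.39 and 8.62 on day 5. petG read 5.16 and 5.48 on day 3, 5.50 and 5.19 on day 4, and 5.99 and 6.48 on day 5. In both genes the 2 day 5 arrays were the highest, and replicate 2 was the higher of them. petN rose by 1.26 (SE 0.29, adjusted p = 0.0094 in limma), and by 0.64 with replicate 2 of day 5 left out, and did not pass with replicate 2 of day 4 left out (adjusted p = 0.0627). petG rose by 0.89 (SE 0.17, adjusted p = 0.00374) and passed with any 1 array left out, but not with the poly-A scaling (0.34, adjusted p = 0.0613). petL did not pass, at -0.10 (95% interval -0.49 to 0.30).

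petD encodes subunit IV, which with cytochrome b6 forms the core that oxidises plastoquinol. It read 5.57 and 5.58 on day 3, 5.84 and 5.78 on day 4, and 6.25 and 7.65 on day 5. The gap between its day 5 arrays was the widest of the 33 genes. The rise of 1.14 (SE 0.31, adjusted p = 0.0231 in limma) was 1.84 with replicate 1 of day 5 left out and 0.44 with replicate 2 of day 5 left out (adjusted p = 0.0545). It also failed to pass with replicate 1 of day 4 left out (adjusted p = 0.0831) or replicate 2 (adjusted p = 0.0974) and with the poly-A scaling (0.59, adjusted p = 0.0587). petB, for cytochrome b6 itself, read 12.51 and 12.37 on day 3, 12.32 and 12.15 on day 4, and 12.55 and 12.60 on day 5. It was highest on day 5, though only a little above day 3. Its rise over day 4 of 0.34 (adjusted p = 0.0392) did not pass when any array other than day 4 replicate 1 was left out (adjusted p from 0.0516 to 0.184) or when days 4 and 5 were fitted alone (adjusted p = 0.0516), and turned to -0.21 with the poly-A scaling.

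petA encodes cytochrome f, which passes electrons on to plastocyanin, and was the member of the complex that fell. It had 10.85 and 10.74 on day 3, 10.85 and 10.37 on day 4, and 9.99 and 10.04 on day 5. Both day 5 arrays were below all earlier ones. The change against day 4 was -0.59 (SE 0.14, adjusted p = 0.0117 in limma) and shrank to -0.36 with replicate 1 of day 4 left out (adjusted p = 0.0651). It missed the threshold with replicate 1 of day 5 left out (adjusted p = 0.0582) and with replicate 2 of day 5 left out (adjusted p = 0.0536).

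**Figure D2:**
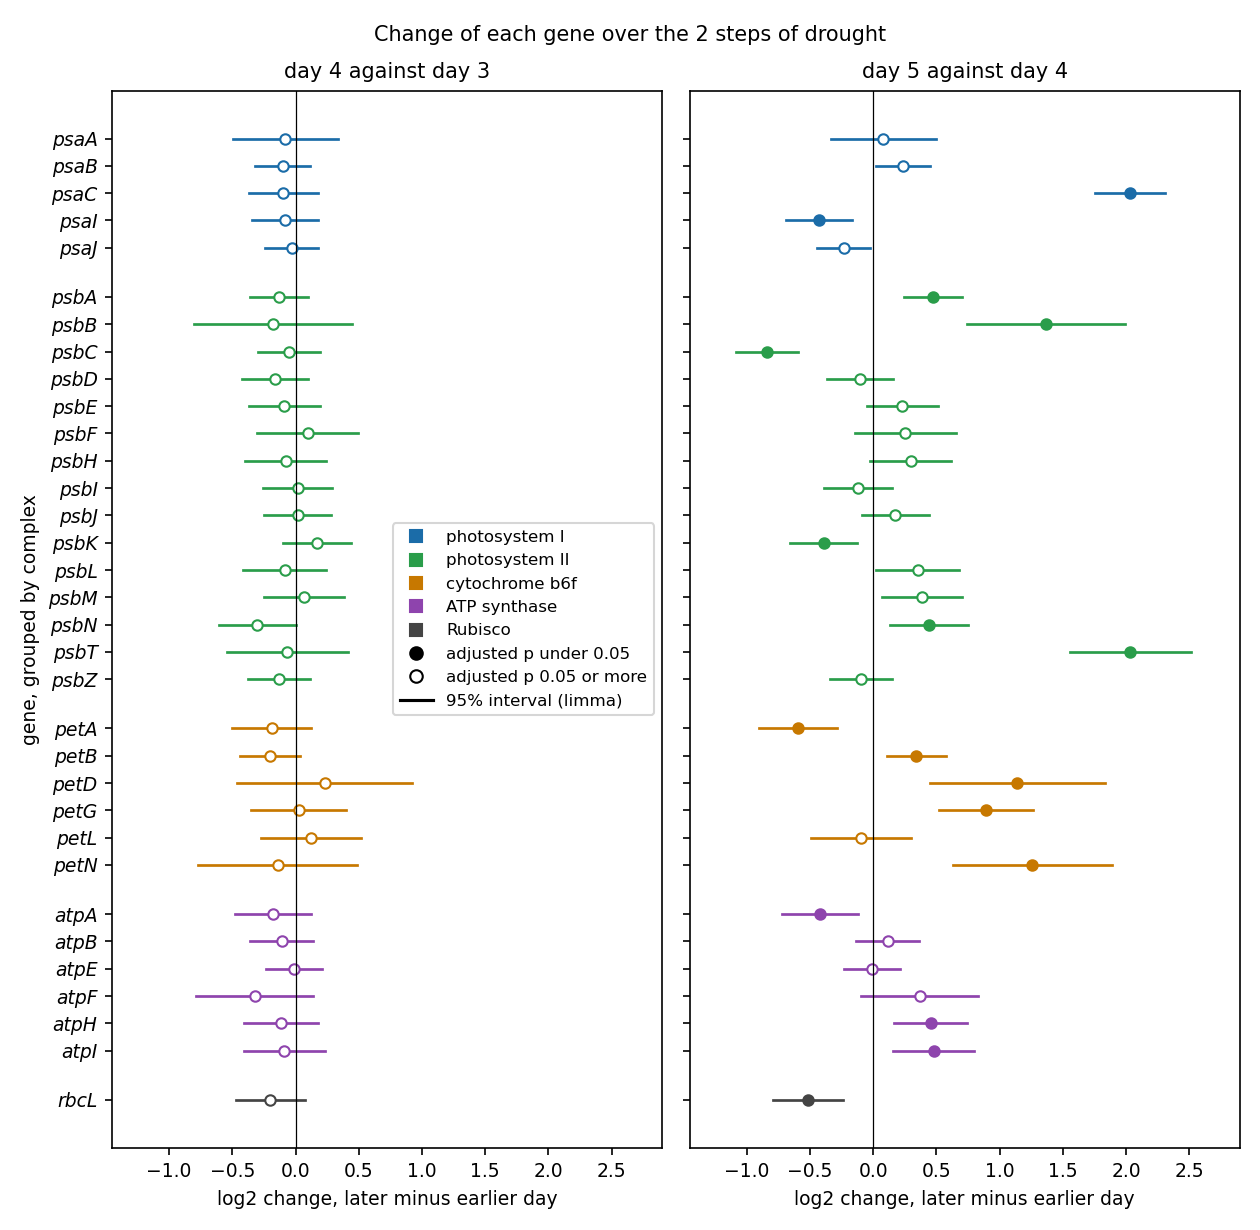
Each point is the log2 change of 1 gene with its 95% interval from limma, for day 4 against day 3 on the left and day 5 against day 4 on the right, and filled points passed an adjusted p of 0.05. All points on the left are open, while on the right psaC and psbT stand near 2 and psbC is the lowest at -0.84, and psbA, psbN, petB, atpH and atpI, filled right of 0, turn negative with the poly-A scaling.

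In the ATP synthase, 2 of 6 genes rose and 1 fell on day 5 against day 4, by 1.34- to 1.39-fold. atpH and atpI encode the c subunit of the rotating ring and the a subunit beside it, the proton channel in the membrane. atpH read 9.42 and 9.37 on day 3, 9.49 and 9.07 on day 4, and 9.71 and 9.77 on day 5. atpI read 6.32 and 6.22 on day 3, 6.39 and 5.97 on day 4, and 6.52 and 6.80 on day 5. Both were highest on the 2 day 5 arrays, and day 4 replicate 2 was the lowest array of each. Their rises of 0.45 and 0.48 (adjusted p = 0.0295 and 0.0355 in limma) turned to -0.10 and -0.07 with the poly-A scaling. With replicate 2 of day 4 left out they were 0.24 and 0.27 and did not pass (adjusted p = 0.176 and 0.223), nor did they with replicate 2 of day 5 left out (adjusted p = 0.141 and 0.242). atpH also failed to pass with replicate 1 of day 5 left out (adjusted p = 0.0821), and atpI without either day 3 array or with only days 4 and 5 in the fit (adjusted p = 0.0554 in each).

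atpA, for the α subunit of the catalytic head, had 11.69 and 11.38 on day 3, 11.53 and 11.19 on day 4, and 10.95 and 10.92 on day 5. Both day 5 arrays were the lowest. It fell by 0.42 (SE 0.14, adjusted p = 0.0447 in limma), a change of -0.26 with replicate 1 of day 4 left out (adjusted p = 0.248). It did not pass with replicate 1 or 2 of day 5 left out (adjusted p = 0.125 and 0.169), with quantile normalization repeated (adjusted p = 0.0786) or with cyclic loess (adjusted p = 0.114). The β subunit gene atpB and the ε subunit gene atpE, on 1 transcription unit, stood at 0.11 (95% interval -0.13 to 0.36) and -0.01 (-0.23 to 0.21), and atpB turned to -0.44 with the poly-A scaling. atpF, for the b subunit of the stator stalk, stood at 0.37 with a wide interval of -0.10 to 0.83, and was negative with the poly-A scaling.

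rbcL read 10.56 and 10.72 on day 3, 10.44 and 10.44 on day 4, and 9.75 and 10.09 on day 5. It was lower on both day 5 arrays than on any earlier one. The fall against day 4 was 1.43-fold (log2 change -0.51, SE 0.12, 95% interval -0.79 to -0.24, adjusted p = 0.0128 in limma). It missed the threshold with replicate 1 of day 4 left out (adjusted p = 0.0504) and with replicate 1 of day 5 left out (adjusted p = 0.117).

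Over the whole span, day 5 against day 3, 8 members rose and 5 fell, where 28.9% of all probe sets passed, 13.2% up and 15.7% down. This comparison shares its day 5 arrays with the one above and is given beside it, not as a second test. The genes that rose were psaC by 1.94, psbT by 1.97, petD by 1.37, psbB by 1.19, petN by 1.12, petG by 0.92, psbM by 0.45 and psbA by 0.34, the last turning to -0.14 and psbM to -0.03 with the poly-A scaling. The changes of those that fell were -0.89 for psbC, -0.78 for petA, -0.71 for rbcL, -0.60 for atpA and -0.51 for psaI. With replicate 2 of day 5 left out the rises of petD, psbB and petN were 0.67, 0.59 and 0.50, and with replicate 1 of that day left out 2.07, 1.80 and 1.74. psbB and petN missed the threshold with either array of day 3 left out (adjusted p from 0.0526 to 0.0898), psaI with replicate 1 of day 3 or replicate 1 of day 5 left out (adjusted p = 0.0783 and 0.0601), and atpA with replicate 1 of day 3 left out (adjusted p = 0.0775). psbA passed only while all 4 arrays of the 2 days were kept (adjusted p from 0.0689 to 0.166). The moderated F test over the 3 days called 13 members, where 31.0% of all probe sets passed.

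Genes of 1 complex moved in both directions, and changes also differed in size or direction within a transcription unit. In the unit psbB-psbT-psbH-petB-petD, 4 of 5 genes rose on day 5 against day 4, by 1.37, 2.03, 0.34 and 1.14 in psbB, psbT, petB and petD, with psbH at 0.30 (adjusted p = 0.165), and petB and psbH turned negative with the poly-A scaling. psbN lies within that unit on the opposite strand, and how far its probe set tells the strands apart was not tested. The unit atpI-atpH-atpF-atpA rose at its first genes and fell at its last, by the values above, with the 2 rises turning negative under the poly-A scaling. Upstream of atpI, rps2 for a ribosomal protein and rpoC2 and rpoC1 for subunits of the plastid RNA polymerase changed by -0.95, -0.59 and -1.49, all falls.

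psbD, psbC and psbZ are transcribed together, yet psbC fell by 0.84 while psbD and psbZ stood at -0.10 and -0.09. petG rose by 0.89 between petL at -0.10 and psaJ at -0.23. The 4 genes of the unit psbE-psbF-psbL-psbJ lay close together at 0.23, 0.26, 0.35 and 0.18, all negative with the poly-A scaling, and none passed. psaI and petA, at the ends of a shared unit, both fell, but the 2 genes between them did not. ycf4, for an assembly factor of photosystem I, rose by 1.04, and cemA, for an envelope membrane protein, stood at 0.04 and turned to -0.51 with the poly-A scaling. psaC lies among genes of the plastid NDH complex, which returns electrons to the plastoquinone pool. Its neighbours ndhE and ndhG rose by 2.19 and 2.46, while ndhD on its other side and ndhI beyond ndhG stood at 0.02 and 0.20, turning to -0.53 and -0.35 with the poly-A scaling. Next to psaB, the ribosomal protein gene rps14 rose by 1.24, with values of 5.62 and 6.91 on day 5, against 5.26 and 4.79 on day 4, but by 0.59 with replicate 2 of day 5 left out (adjusted p = 0.0579) and by 1.88 with replicate 1 of day 5 left out. With replicate 2 of day 4 left out its adjusted p was 0.105.

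**Figure D3:**
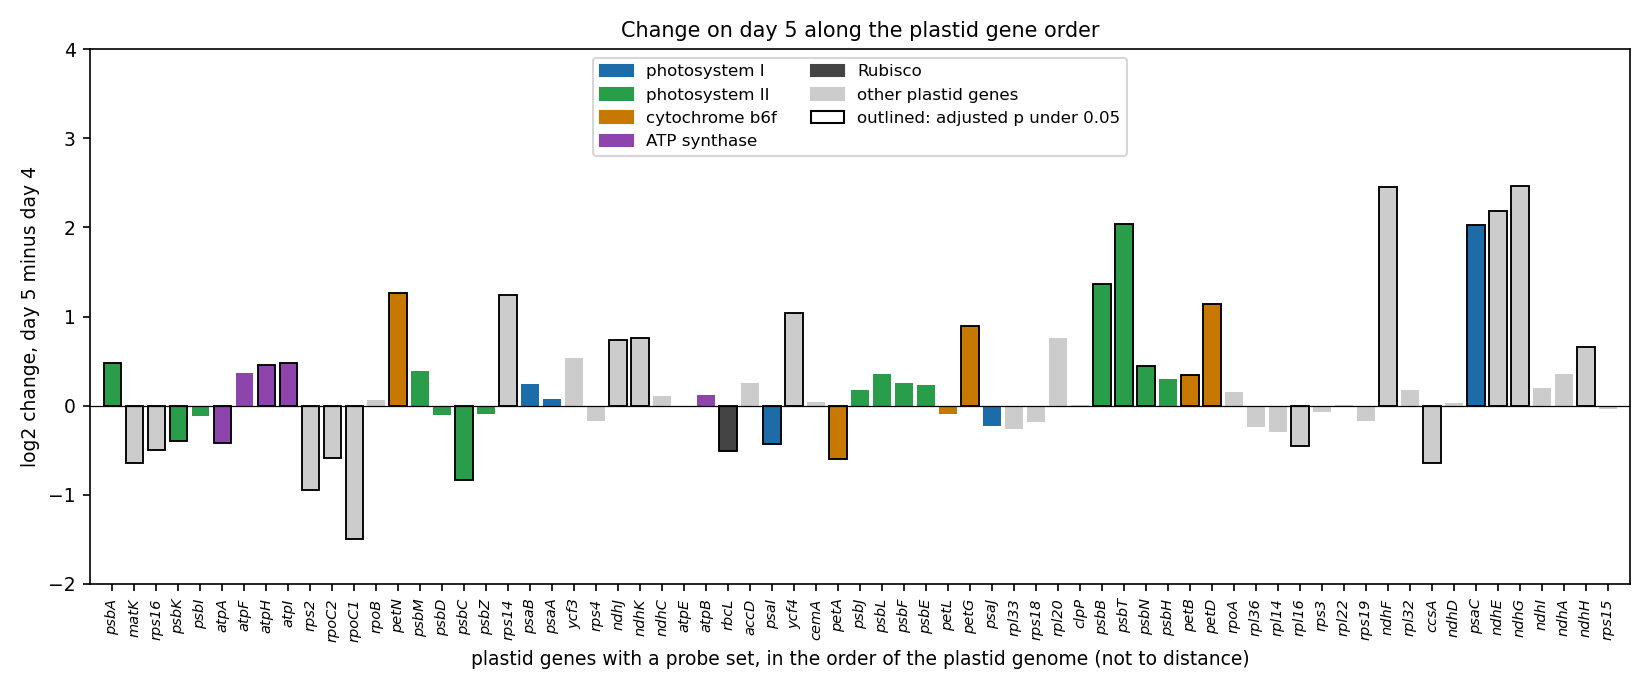
Bars give the log2 change of day 5 against day 4 for the plastid genes with a probe set of their own, in the order of the plastid genome and not to distance, coloured by complex, with outlined bars past an adjusted p of 0.05. Tall bars stand beside short ones within units, as for psbC at -0.84 between psbD and psbZ, and the outlined bars of psbA, psbN, petB, atpH and atpI point downward with the poly-A scaling.

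The rises were mostly in probe sets of low signal, which describes the probe sets and not the amounts of these RNAs relative to one another. Ranked by day 3 signal among all probe sets, 10 members lay in the second quartile, between 4.96 and 7.46, and none in the lowest. Of these 10, 7 rose and none fell on day 5 against day 4, with a median change of 1.02. Over all probe sets of that quartile 14.3% rose, 13.0% fell and the median was -0.03. The 20 members of the highest quartile, above 8.88, had 3 rises and 6 falls with a median of 0.05 (negative with the poly-A scaling), where 10.4% of all probe sets rose and 21.1% fell. As a description, the day 3 signal and the change correlated at Pearson's r = -0.61 (Spearman's rho = -0.56) over the 33 genes and at r = -0.56 (rho = -0.45) over the 36 other plastid genes. These points share arrays and transcription units, and a signal depends on the probes as well as on the RNA. Of the 7 rises in the second quartile, that of atpI turned negative with the poly-A scaling, as did the 3 in the highest quartile and the 1 in the third.

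**Figure D4:**
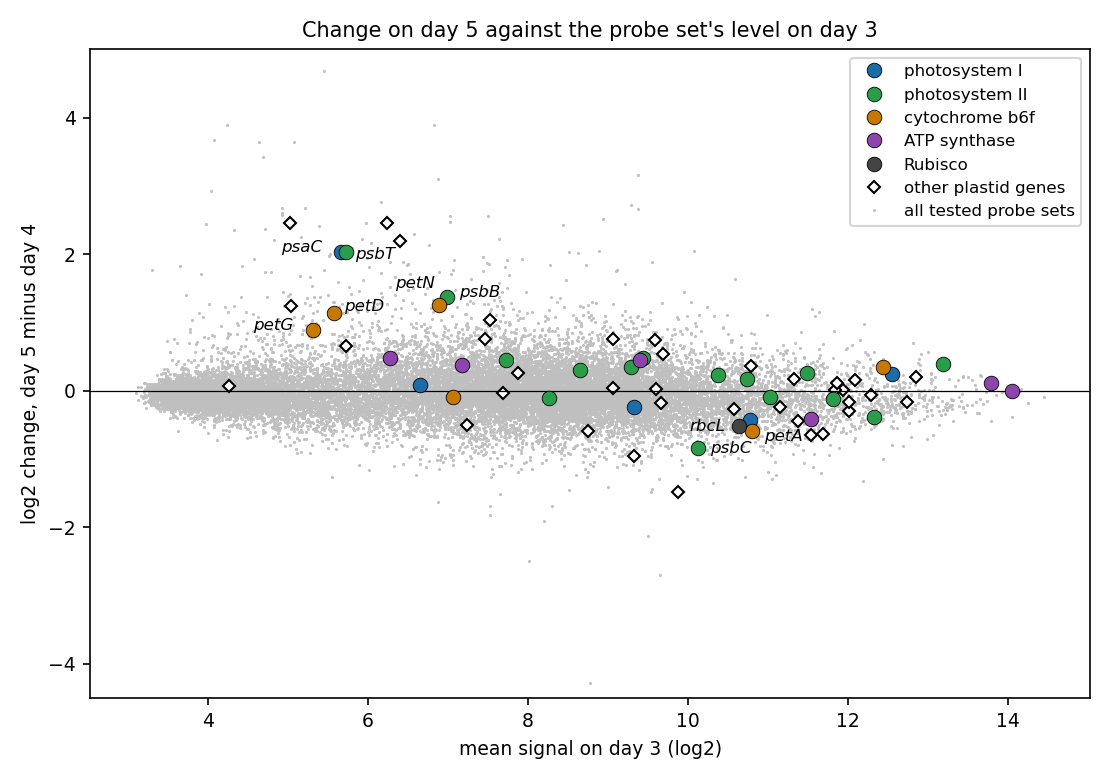
Each coloured circle is 1 of the 33 genes, placed by its mean log2 signal on day 3 and its log2 change of day 5 against day 4, with the 36 other plastid genes as open diamonds and all 22746 probe sets as grey dots. Members with a day 3 signal under 7.46 reach changes of 2.03 and members above 8.88 lie between -0.84 and 0.48, and the small rises of the bright probe sets of psbA, petB and atpH turn negative with the poly-A scaling.

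The plastid genes also moved together between replicates of a day. On day 5, 31 of the 33 members read higher in replicate 2 than in replicate 1, with a median difference of 0.20, and so did 32 of the 36 other plastid genes. On days 3 and 4, 5 of 33 members read higher in replicate 2 on each day, with median differences of -0.14 and -0.16. Over all probe sets replicate 2 was the higher in 46.2% on day 5, 47.6% on day 4 and 55.3% on day 3. The 25S ribosomal RNA control was likewise higher in day 5 replicate 2 than in replicate 1, at 13.52 and 13.30. The part of this shared difference in the members' changes was not tested.

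Few nuclear genes of the same pathways had a probe set named here with that gene alone, which does not mean that the array lacks the others. The changes of those measured lay between -0.32 and 0.34 on day 5 against day 4. Of 62 listed genes for nuclear photosystem and light-harvesting proteins 7 were measured. None of the 7 rose on day 5 against day 4, and 2 fell, PSAE-1 and PSBY, each with a change of -0.32. Neither of these falls passed when any 1 of the 6 arrays was left out, with cyclic loess or with quantile normalization repeated (adjusted p from 0.0536 to 0.196). Against day 3, 3 of the 7 fell, PSAE-1 by 0.37, PSBY by 0.33 and the photosystem I gene PSAN by 0.46. Of these, PSAE-1 and PSBY did not pass with cyclic loess (adjusted p = 0.0629 and 0.0797 in limma). Neither of these 2 calls held with any 1 array of days 3 and 5 left out, with changes from -0.40 to -0.30. The antenna gene LHCB4.2 rose by 0.64, but did not pass with the poly-A scaling (0.16, adjusted p = 0.306). Of 33 listed nuclear genes for electron transport, ATP synthase and carbon fixation 5 were measured. On day 5 against day 3 all 5 changes were negative and 2 genes fell, ATPC2 by 0.33 and SBPASE by 0.30, with PRK at -0.02. Neither fall passed with quantile normalization repeated or with cyclic loess (adjusted p from 0.0690 to 0.128 in limma). Both calls were also lost with any 1 array of days 3 and 5 left out, with changes from -0.40 to -0.24. On day 5 against day 4, 1 of the 5 rose and none fell. This was PRK of the Calvin cycle, at 0.34, which turned to -0.21 with the poly-A scaling and passed only in the fit without replicate 1 of day 4 among those that left out 1 array (adjusted p from 0.0615 to 0.193 in the others).

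Most measured chlorophyll synthesis genes were lower on day 5. Of 31 listed, 9 were measured, and 2 of these did not pass against day 4 and lay above 0 in the deposited values. The other 7 fell and none rose, with a median over all 9 of -0.45 beside -0.05 over all probe sets. They include HEME2, which makes coproporphyrinogen, at -0.67, CHLI2 of the magnesium chelatase at -0.62, PORB, which reduces protochlorophyllide in light, at -0.50, and the methyltransferase gene CHLM at -0.37. CHLM did not pass when replicate 1 of day 4 or either array of day 5 was left out (adjusted p from 0.0658 to 0.141) or with cyclic loess (adjusted p = 0.0625), nor PORB with replicate 1 of day 5 left out (adjusted p = 0.0512). HEME2 read 9.32 and 9.28 on day 5, against 9.92 and 10.02 on day 4. Of 10 measured genes for nuclear proteins that process plastid RNA, 3 fell and none rose, namely CRR21, CRR28 and CAF1. CRR21 missed the threshold with replicate 2 of day 5 left out (adjusted p = 0.0994), CRR28 with any 1 array of days 4 and 5 left out (adjusted p from 0.0643 to 0.207), with limma's trend option (adjusted p = 0.0787) or with cyclic loess (adjusted p = 0.0596), and CAF1 with either array of day 4 or replicate 2 of day 5 left out (adjusted p from 0.0733 to 0.236). Among the others LPA66, which edits psbF RNA, and OTP84, which edits psbZ RNA, did not pass on this step, with values of 7.46 and 7.42 and of 6.07 and 6.12 on day 5, against 7.49 and 7.26 and against 6.08 and 6.20 on day 4. LPA66 stood at 0.07 and turned to -0.48 with the poly-A scaling. Against day 3, 4 of the 10 fell, CRR21, OTP81, OTP84 and OTP85. OTP84, with 6.66 and 6.44 on day 3, fell by 0.45 (adjusted p = 0.0101), a call lost with replicate 1 of day 3 or replicate 1 of day 5 left out (adjusted p = 0.0965 and 0.0594). The calls of CRR21 and OTP81 were likewise lost with 1 array left out (adjusted p from 0.0734 to 0.221). Of 34 listed genes of senescence and chlorophyll breakdown 5 were measured, and none of the 5 passed on day 5 against day 4. Against day 3, 1 of them rose, WRKY6 by 0.38 (adjusted p = 0.0352 in limma). That rise did not pass with limma's trend option (adjusted p = 0.0616) and turned to -0.10 with the poly-A scaling.

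Of the measured markers of other bud tissues, the anther genes and UFO passed on day 5 against day 4 and the pollen genes did not. All 3 measured anther genes fell on day 5 against day 4, AMS by 0.43, EMS1 by 0.45 and SPL by 0.43, and each missed the threshold in at least 3 of the fits that left out 1 array (adjusted p from 0.0580 to 0.354). AMS also missed it with arrays centred on the median, quantile normalization repeated or cyclic loess (adjusted p from 0.0516 to 0.0893). AMS read 8.81 and 9.23 on day 5, against 9.58 and 9.32 on day 4, EMS1 8.66 and 8.69 against 9.02 and 9.21, and SPL 7.16 and 7.22 against 7.74 and 7.50 on the same days. UFO dropped by 0.38 (adjusted p = 0.0488 in limma) but stood at -0.04 against day 3. Its day 3 mean of 4.54 lay in the lowest quartile of all probe sets, which ends at 4.96. The call was lost in 5 of the fits that left out 1 array. It was also lost with limma's trend option, median centring, repeated quantile normalization, cyclic loess or only days 4 and 5 in the fit (adjusted p from 0.0526 to 0.0813). All 3 anther genes also fell against day 3, by 0.49 to 0.54, the calls of AMS and SPL being lost in some fits that left out 1 array (adjusted p from 0.0553 to 0.147). Of 7 measured pollen genes none passed on day 5 against day 4, but 3 rose on day 5 against day 3, ANX2 by 0.45, AGL65 by 0.42 and AGL94 by 0.36 (adjusted p = 0.0189, 0.0140 and 0.0319 in limma). These rises turned to -0.04, -0.07 and -0.13 with the poly-A scaling, and each was lost in at least 2 of the fits that left out 1 array (adjusted p from 0.0560 to 0.249). ANX2 had risen by 0.54 on day 4 against day 3 (adjusted p = 0.0309), a call lost with any 1 array of these days left out (adjusted p from 0.0514 to 0.192). Of 8 measured mitochondrial nad genes, which like the plastid genes are not encoded in the nucleus, 2 fell, nad2 and nad7, and none rose, with a median of -0.03. nad2 fell by 0.80, and by 0.47 with replicate 1 of day 4 left out, and nad7 by 0.51, a call lost with replicate 1 of day 4 or replicate 1 of day 5 left out (adjusted p = 0.0918 and 0.0910). The part of these shifts in the members' changes was not tested.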

How the data were processed

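Total RNA of unopened buds was hybridised to 6 ATH1 arrays, 2 for each of 3 days. The deposited table holds log2 values that the authors made with RMA and affy (versions not given), per the submitters' processing notes. Precision is limited by the number of arrays, with a median SE of 0.11 for day 5 against day 4. From 22810 rows, 64 controls were left out. Of 22746 tested probe sets 13513 were annotated with 1 gene, 503 with several and 8730 were not named here. Names come from the platform annotation, checked against the RefSeq table of TAIR10.1, which also gave the gene order.

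All arrays entered 1 linear model with day as its only term in limma 3.58.1 (R 4.3.3, lmFit, contrasts.fit, eBayes without trend, 3 residual and 8.01 prior degrees of freedom). Tests were two-sided, with the Benjamini-Hochberg adjustment made over all 22746 probe sets and a threshold of 0.05. The code was tested on simulated data, whose spread was set to limma's moderated variances after a first run with each probe set's own variance recovered fewer of the changes put in. Every member is named, and of the other lists up to 4 genes with the smallest p for day 5 against day 3. Members and lists were chosen with earlier results of these data known. Neighbouring plastid genes, the editing factors, PRK, CRR28, CAF1, nad2 and nad7 were named after their values were seen. Alternatives were a prior that follows the mean level, median centring, repeated quantile normalization, cyclic loess, scaling to 24 poly-A controls, a block for the replicate number, only the days compared, leaving out each array, the dimmest 30% or the _s_at and _x_at probe sets, and a 2-fold minimum. For genes outside the 33 they were added after seeing the data.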

Additional observations from a re-analysis of the deposited data

How the results depend on the processing

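The count of 0 members for day 4 against day 3 stood under every alternative. For day 5 against day 4 the members' count was 7 to 15 when each array was left out, and 5 with a 2-fold minimum (psaC, psbB, psbT, petD and petN). For day 5 against day 3 it was 9 to 15 when each array was left out, 24 scaled to the poly-A controls and 5 at 2-fold, and for the F test 10 to 15 and 21. Over all probe sets, leaving out each array gave 227 to 1033 calls for day 4 against day 3, 2506 to 4822 for day 5 against day 4, 3844 to 7034 for day 5 against day 3 and 3842 to 7121 for the F test, against 1125, 5443, 6566 and 7045 with all arrays. At 2-fold the 3 comparisons gave 93, 362 and 746. Scaled to the poly-A controls, day 5 gave 19570 calls against day 4 and 18174 against day 3, and the F test 19922. Rises made up 1.97% of calls for day 5 against day 4 under that scaling and 55.2% with cyclic loess, against 44.0% as deposited, and of the members' calls 20.0% and 81.2%, against 64.7%.

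Among results called with either scaling, the poly-A scaling turned, for day 5 against day 4, psaA (-0.47), psaB (-0.31), psbA (-0.075), psbJ (-0.38), psbN (-0.11), petB (-0.21), atpB (-0.44), atpH (-0.10), atpI (-0.072), ndhD (-0.53), ndhI (-0.35), cemA (-0.51), AGL65 (-0.51), AGL94 (-0.32), LPA66 (-0.48) and PRK (-0.21). For day 5 against day 3 they were psaB (-0.35), psbA (-0.14), psbE (-0.35), psbM (-0.032), psbN (-0.35), petB (-0.35), petL (-0.46), atpB (-0.48), ndhI (-0.42), WRKY6 (-0.10), ANX2 (-0.040), AGL65 (-0.071) and AGL94 (-0.13). Members that turned negative without a call under either scaling were psbE (-0.32), psbF (-0.30), psbH (-0.25), psbL (-0.20), psbM (-0.16) and atpF (-0.18) for day 5 against day 4, and psbF (-0.13), psbH (-0.27), psbJ (-0.29), psbL (-0.22), atpF (-0.44), atpH (-0.15) and atpI (-0.097) for day 5 against day 3. Between days 3 and 4, psaJ (0.033), psbC (0.010) and atpE (0.048) turned positive, none called. The cause was not tested. The labels do not give the amount of control RNA per sample. The replicate number as a block changed no member's call between 2 days, with 17 and 13 members called, and the F test called 14 in place of 13. Deviations of same-numbered arrays correlated at 0.06, -0.00 and 0.10 across days, and nothing in the labels pairs them.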
